A study of Homo sapiens with 4 samples.

Results

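The Notch genes described here are 4 receptors (NOTCH1, NOTCH2, NOTCH3 and NOTCH4), 3 ligands (JAG1, JAG2 and DLL1), the DNA-binding factor RBPJ and 2 target genes (HES1 and HES4). These 10 genes were taken by symbol from a table of 32673 genes, and all 10 were found in it. The table came from RNA sequencing of a pair of cell lines with 2 libraries each, TF1-BA cells, which are sensitive to imatinib, and TF1-BAR cells, which are resistant to it. TF1 is a human erythroleukaemia cell line that grows on the cytokine GM-CSF, and imatinib is an inhibitor of the ABL kinase. The comparison asks how the RNA of the resistant cells differed from that of the sensitive cells.

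Both lines carried BCR-ABL, the fusion kinase of chronic myeloid leukaemia, which the study introduced with a retrovirus, and TF1-BAR cells were raised from TF1-BA cells under continuous imatinib. Per the labels, both were grown with 2 ng/mL GM-CSF and 10% serum, the TF1-BAR culture also received 2 µM imatinib, and 10000000 cells went into each replicate. The methods of the study give another GM-CSF concentration, and whether imatinib was present at harvest is not stated. The libraries of the resistant line are titled as vector and named TF1-BAR in the same labels. As the drug was added to only 1 of the lines, lasting resistance and an effect of the drug in the medium cannot be told apart. The labels do not say whether replicates were separate cultures, so that the p-values below measure the spread between these libraries, which may be technical.

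Notch receptors are single-pass membrane proteins that are cut on their way to the cell surface and activated by ligands of the Jagged and Delta-like families on neighbouring cells. Ligand binding leads to cleavage by an ADAM protease and then by gamma-secretase, which frees the intracellular domain to enter the nucleus, where it joins RBPJ and a Mastermind-like coactivator and switches on genes such as those of the HES and HEY repressors. Without that domain, RBPJ recruits corepressors to the same sites. In blood formation the pathway is best known for T cell commitment, and activating mutations of NOTCH1 are frequent in T cell leukaemia. All values below are RNA levels, and receptor cleavage was not measured.

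The promoter sequences of the target genes are shown because TGGGAA is the core sequence that RBPJ binds. RefSeq starts on GRCh38.p14 were listed for 9 of the 10 genes, DLL1 being the other, and the 250 bases before each start were searched on both strands. The stretch from 150 to 61 bases before the start of each HES gene is printed 5′ to 3′ on the strand of the gene, with TGGGAA in capitals. That of HES1 lies at chr3:194135998-194136087 on the plus strand and that of HES4 at chr1:1000158-1000247 on the minus strand.
HES1: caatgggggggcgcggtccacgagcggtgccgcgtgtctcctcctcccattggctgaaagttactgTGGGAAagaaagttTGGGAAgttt
HES4: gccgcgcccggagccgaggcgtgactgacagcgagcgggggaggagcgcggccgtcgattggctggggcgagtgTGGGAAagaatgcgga
HES1 held 2 matches, at 84 to 79 and 70 to 65 bases before its start and both on the strand of the gene, and HES4 held 1, at 76 to 71 bases. The start of HES4 differs between annotations, and 75 of its 250 bases lie inside the gene as the expression table places it. Most of the bases of its match are among them. RBPJ had 5 listed starts, and 1 of them held 2 matches. The windows of NOTCH1, NOTCH2, NOTCH3, NOTCH4, JAG1 and JAG2 held none of these letters. Parts of the windows of JAG1 and JAG2 lie inside these genes as the expression table places them. Over all 35116 promoters of the same length, 20.8% held at least 1 match and 2.9% at least 2. The N box CACNAG, which HES proteins bind, was found 3 times in the window of HES1, which represses its own gene, and once each in those of NOTCH3, NOTCH4 and 1 start of RBPJ. At least 1 such match stood in 32% of all promoters. A match of letters is a description and not a site of binding, which was not measured.

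The libraries held 15465497 to 18042299 fragments as recovered from the deposited values, and the log2 values of replicates correlated across 15519 genes with r = 0.983 in TF1-BA and 0.979 in TF1-BAR. All 10 markers of myeloid and erythroid progenitors averaged at least 1 FPKM (fragments scaled to transcript length and to the number mapped), with summed levels of 534 to 561 FPKM in TF1-BA and 686 to 707 FPKM in TF1-BAR. Markers of other cell types also differed between the lines. Of the 6 endothelial markers, 4 averaged at least 1 FPKM, and the list summed to 65 to 67.3 FPKM in TF1-BA and 142 to 184 FPKM in TF1-BAR. The 6 T cell markers summed to 19.7 to 21.3 and 6.25 to 7.35 FPKM, most of it CD3D. The 6 stromal markers summed to 0.667 to 0.822 and 1.57 to 1.59 FPKM, of which LUM alone made up 0.276 and 0.15 against 1.18 and 1.1 FPKM, 4 of 6 B cell markers to 5.15 to 5.44 and 7.21 to 7.39 FPKM, and 3 of 6 macrophage markers to 0.127 to 0.137 and 0.168 to 0.202 FPKM, and no listed marker was at 0 in all 4 libraries. Their part in the differences below was not tested.

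By mean FPKM, HES1 was the most abundant of the 10 genes in both lines, and NOTCH4 the least. In TF1-BAR replicate 1, however, HES4 (0.0567 FPKM) lay below NOTCH4 (0.0781 FPKM). In TF1-BA cells the order of mean FPKM was HES1, RBPJ, NOTCH2, NOTCH1, JAG1, JAG2, DLL1, HES4, NOTCH3 and NOTCH4, from 46 down to 0.028. Neighbours in that order did not overlap between libraries except for DLL1 and HES4, at 0.734 and 0.731 FPKM. The order in TF1-BAR cells was HES1, NOTCH1, RBPJ, NOTCH2, JAG1, JAG2, DLL1, HES4, NOTCH3 and NOTCH4, from 37.1 down to 0.0582 FPKM. There the libraries of NOTCH1 and RBPJ overlapped, as did those of HES4 and NOTCH3. NOTCH1 thus stood below NOTCH2 in the sensitive cells and above it in the resistant cells.

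The difference between the lines was tested by limma on log2(FPKM + 0.5) for those 15519 genes, which averaged 0.5 FPKM or more, and 8 of the 10 passed that filter. A gene was called differentially expressed where its log2 fold change reached 1 in size and its Benjamini-Hochberg adjusted p was under 0.05. None of the 8 was called higher in TF1-BAR (0 of 8), where 3.05% of all genes tested were, and none was called lower (0 of 8), where 1.69% were. By the adjusted p alone 1 gene, NOTCH1, was higher, against 16.3% of all genes, and 0 were lower, against 10.5%. At an unadjusted p under 0.05 there were 3 of 8, namely NOTCH1, HES1 and RBPJ, against 42.2% of all genes. Limma voom on the recovered fragments called 0 of 8 in either direction and gave an adjusted p under 0.05 to 3, where it did so to 37.6% of all genes. The libraries of the lines did not overlap for 6 of the 8, with 3 higher and 3 lower, and for 69.3% of all genes tested. Their median log2 fold change was −0.062, against 0.066 over all genes. HES4, 1 of the 3 lower, passed the filter through the TF1-BA libraries, in which it was high, so that its part in these values is not support for a change.

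**Figure D1:**
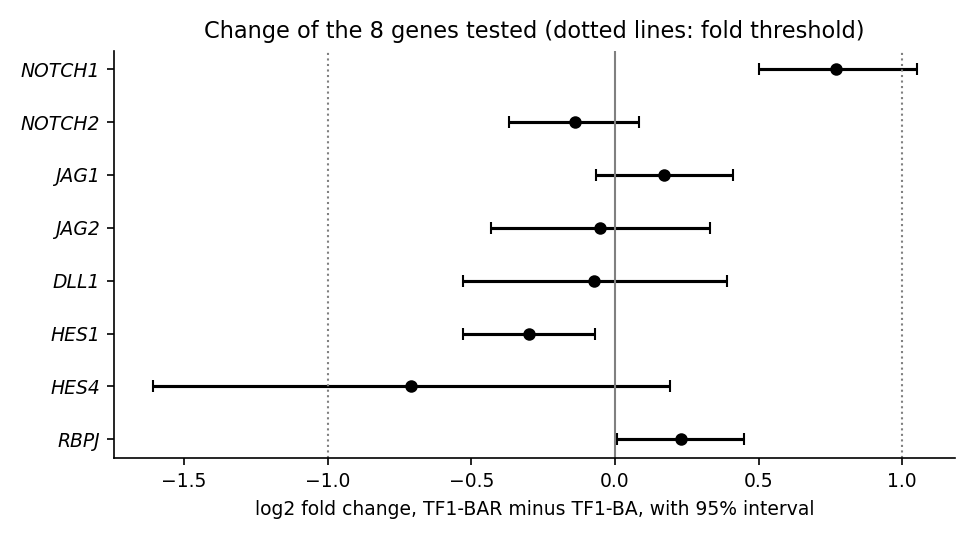
log2 fold change on log2(FPKM + 0.5), TF1-BAR minus TF1-BA, with its 95% interval from limma, for the 8 genes tested, with dotted lines at the fold threshold of 1 in either direction. The interval of NOTCH1 runs from 0.50 to 1.05, that of HES1 lies below 0, and that of HES4 is the widest, from −1.61 to 0.19.

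NOTCH1 (ENSG00000148400, chromosome 9, 136494444 to 136545862 on the minus strand of GRCh38, as the table places it), the receptor of T cell commitment, was the gene that rose. Its level was 6.18 and 6.53 FPKM in the TF1-BA libraries and 10.3 and 12.2 FPKM in the TF1-BAR libraries, from 998 to 1943 fragments. Both resistant libraries stood above both sensitive ones. The means were 6.36 ± 0.247 and 11.3 ± 1.38 FPKM (SD, n = 2 libraries each), a ratio of 1.77, and the log2 fold change was 0.77 with SE 0.106 (limma adjusted p = 0.0114). In bulk RNA a change in the share of cells with a transcript and a change in the level per cell cannot be told apart. Without TF1-BA replicate 1 the limma adjusted p was 0.0907 and without replicate 2 it was 0.0848, and over all genes those fits gave 144 and 42 genes with an adjusted p under 0.05, against 4167 with all libraries. With no filter on low values it was 0.0502. Genes tested on chromosome 9 (596) had their median at 0.077, and the 59 genes tested within 1 Mb of NOTCH1 at 0.14, of which 13 were higher and 4 lower by adjusted p.

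NOTCH2 (ENSG00000134250, chromosome 1, 119911553 to 120069626 on the minus strand), the other abundant receptor, did not pass the test. It was measured at 7.35 and 7.53 FPKM in TF1-BA and at 6.33 and 7.08 FPKM in TF1-BAR, from 1677 to 2228 fragments. Both resistant libraries lay below the sensitive ones, by a log2 fold change of −0.14 with SE 0.0876 and a 95% interval of −0.37 to 0.084 (limma adjusted p = 0.279). Leaving out TF1-BAR replicate 1 gave −0.066, and leaving out its replicate 2 gave −0.22. NOTCH2 has 5 annotated near-copies on the same chromosome, 1 of which had values here, NOTCH2NLA with 8 to 29 fragments per library, and reads shared among these copies make its level uncertain.

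NOTCH1 and NOTCH2 together made up nearly all receptor RNA. NOTCH1 held 45% and 45.7% of the summed FPKM of the 4 receptors in TF1-BA and 61% and 62.7% in TF1-BAR, and NOTCH2 held 53.5% and 52.6% against 37.6% and 36.3%. The ratio of NOTCH1 to NOTCH2 was 0.841 and 0.868 in the sensitive libraries and 1.63 and 1.73 in the resistant ones, a log2 difference of 0.97. An exact permutation test of this ratio, two-sided, gave p = 0.333. That is the smallest that 2 libraries against 2 allow, so that the test cannot decide whether the ratio differs. The sum over the receptors was 13.7 and 14.3 FPKM in TF1-BA and 16.9 and 19.5 FPKM in TF1-BAR.

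NOTCH3 (ENSG00000074181, chromosome 19, 15159038 to 15200981 on the minus strand), a receptor best known from vascular smooth muscle, and NOTCH4 (ENSG00000204301, chromosome 6, 32194843 to 32224067 on the minus strand), best known from endothelium, were near the limit of detection and were below the filter. NOTCH3 had 29 and 31 fragments in TF1-BA and 23 and 26 in TF1-BAR, or 0.171 and 0.213 against 0.155 and 0.172 FPKM, and the lines overlapped. Its ratio over pooled fragments, corrected for library size, was 0.86 with an exact 95% interval of 0.577 to 1.27, which covers counting error only. Averaged over genes, replicates differed by more than counting error, at 3.86 (TF1-BA) and 6.34 (TF1-BAR) chi-square units for each degree of freedom. This was not computed for NOTCH3 by itself. NOTCH4 had 4 and 5 fragments against 12 and 6, or 0.0227 and 0.0332 against 0.0781 and 0.0383 FPKM, with both resistant libraries above the sensitive ones, and its ratio of 2.11 had an interval of 0.898 to 5.32. Both intervals include a ratio of 1, and no difference of either receptor was detected. NOTCH4 shares 98 exon bases on the same strand with GPSM3, which stood at 59.6 and 65.3 FPKM in TF1-BA and 88 and 98.5 FPKM in TF1-BAR, and the part of GPSM3 in the NOTCH4 fragments was not tested.

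None of the 3 ligands passed the test. JAG1 (ENSG00000101384, chromosome 20, 10637684 to 10674107 on the minus strand), the most abundant ligand, stood at 3.78 and 3.46 FPKM in TF1-BA and at 4.03 and 4.25 FPKM in TF1-BAR. The resistant libraries were both above the sensitive ones, by a log2 fold change of 0.17 with SE 0.0928 and a 95% interval of −0.066 to 0.41 (limma adjusted p = 0.222). The 440 genes tested on chromosome 20 had their median at a log2 fold change of 0.39, and the 4 within 1 Mb of JAG1 at 0.45, both above the value of JAG1. The library kit does not mark strand, and 306 exon bases of JAG1 are shared with an antisense transcript.

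JAG2 (ENSG00000184916, chromosome 14, 105140981 to 105168824 on the minus strand) was measured at 1.72 and 1.58 FPKM in TF1-BA and at 1.38 and 1.78 FPKM in TF1-BAR. These libraries overlapped, with a log2 fold change of −0.052, SE 0.147 and a 95% interval of −0.43 to 0.33 (limma adjusted p = 0.817), and its sign changed without TF1-BAR replicate 1, to 0.088. JAG2 shares 469 exon bases on the same strand with a long non-coding RNA. DLL1 (ENSG00000198719, chromosome 6, 170282206 to 170306565 on the minus strand), a ligand of the Delta-like family, was sparse, with 47 and 33 fragments against 36 and 33, or 0.807 and 0.661 against 0.708 and 0.636 FPKM. Its libraries overlapped as well, with a log2 fold change of −0.073, SE 0.178 and a 95% interval of −0.53 to 0.39 (limma adjusted p = 0.787), and without TF1-BA replicate 1 it was 0.013. DLL1 shares 370 exon bases with FAM120B on the opposite strand, which stood at 5.89 to 8.17 FPKM, so that reads of the pair cannot be told apart there. JAG1 made up 60% to 65.9% of the summed FPKM of the 3 ligands in the 4 libraries, and that sum was 6.3 and 5.69 FPKM in TF1-BA and 6.12 and 6.67 FPKM in TF1-BAR.

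RBPJ (ENSG00000168214, chromosome 4, 26163455 to 26435131 on the plus strand), through which all 4 receptors act on DNA, was slightly higher in both resistant libraries but did not pass the adjusted threshold. Its level was 9.28 and 8.68 FPKM in TF1-BA and 11.1 and 10.1 FPKM in TF1-BAR, from 1242 to 1619 fragments, with no overlap. The log2 fold change was 0.23 with SE 0.0852 and a 95% interval of 0.0078 to 0.45 (limma adjusted p = 0.11), and limma voom on the recovered fragments gave an adjusted p of 0.0484. RBPJ has 4 annotated processed pseudogenes, and reads they may share with RBPJ make its level uncertain.

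HES1 (ENSG00000114315, chromosome 3, 194136145 to 194138732 on the plus strand), a repressor of the basic helix-loop-helix class and a direct target of Notch in many tissues, was lower in both resistant libraries while NOTCH1 was higher. It stood at 49.3 and 42.6 FPKM in TF1-BA and at 36.4 and 37.8 FPKM in TF1-BAR, from 1182 to 1835 fragments. Its place among the listed genes was above 97.5% of them in TF1-BA and above 96.8% in TF1-BAR. The means were 46 ± 4.77 and 37.1 ± 1.04 FPKM (SD, n = 2 libraries each), and the log2 fold change was −0.30 with SE 0.0893 and a 95% interval of −0.53 to −0.071 (limma adjusted p = 0.0644). The adjusted p was 0.0198 with limma voom on the recovered fragments and 0.0238 over protein-coding genes only.

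HES4 (ENSG00000188290, chromosome 1, 998962 to 1000172 on the minus strand), a close relative of HES1 with no mouse counterpart, was sparse and was set largely by 1 library. It had 12 and 15 fragments in TF1-BA and 1 and 9 in TF1-BAR, or 0.595 and 0.868 against 0.0567 and 0.501 FPKM. Both resistant libraries lay below the sensitive ones, and TF1-BAR replicate 1 held a single fragment. The log2 fold change was −0.71 with SE 0.35 (limma adjusted p = 0.19). It was −0.29 without TF1-BAR replicate 1, −1.14 without TF1-BAR replicate 2 and −1.79 with limma voom on the recovered fragments. Pooled fragments gave a ratio of 0.39 with an exact 95% interval of 0.168 to 0.831, for counting error only. HES4 passed the filter on low values by a narrow margin, and its adjusted p was under 0.05 in 1 of 15 alternatives, at 0.0498 over protein-coding genes only, and at most 0.456.

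The HES and HEY family as a whole held 10 listed genes, of which 6 were tested, 0 rose and 2 fell by adjusted p, and 1 of these was called. That is 33.3% of the tested genes by adjusted p, against 26.9% of all genes, and their median log2 fold change was −0.51. HEY1 and HES4 passed the filter through the TF1-BA libraries, in which they were high, so that neither the count nor the median is support for a change of the family. HEY1, a repressor that is a direct Notch target in endothelium and heart, fell from 1.29 and 1.5 FPKM to 0.334 and 0.52 FPKM, a log2 fold change of −1.04 with SE 0.188 (limma adjusted p = 0.0211). This call was lost in each fit without 1 library, where its adjusted p was 0.0519 to 0.115 and its log2 fold change −1.18 to −0.89. HES6, which antagonises HES1 and is itself not a classical Notch target, fell from 24.7 and 23.6 FPKM to 11.9 and 16.5 FPKM, by 0.76 on the log2 scale with SE 0.158 (limma adjusted p = 0.0282). HES7, the oscillator of the somite clock, stood at 4.45 and 5.16 against 3.91 and 5.6 FPKM, and HEYL, a target of NOTCH3 in muscle cells of vessels, at 2.45 and 2.19 against 2.37 and 2.21 FPKM. Both overlapped between the lines.

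HES2, named after its values were seen, was below the filter on the mean of all 4 libraries and low in the resistant cells. It had 84 and 61 fragments in TF1-BA and 6 and 9 in TF1-BAR, or 0.861 and 0.729 against 0.0704 and 0.104 FPKM, a pooled ratio of 0.109 with an exact 95% interval of 0.0594 to 0.186, for counting error only. With no filter on low values its log2 fold change was −1.14 (limma adjusted p = 0.0456). HES3, HES5 and HEY2 had at most 2 fragments in any library. The family summed to 83.7 and 76.6 FPKM in TF1-BA and to 55.1 and 63.3 FPKM in TF1-BAR, and HES1 made up 55.6% to 66.1% and HES6 21.7% to 30.7% of it. The sum was lower in both resistant libraries, as were HES1 and HES6. The sum itself was not tested, and HES1 did not pass its test.

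**Figure D2:**
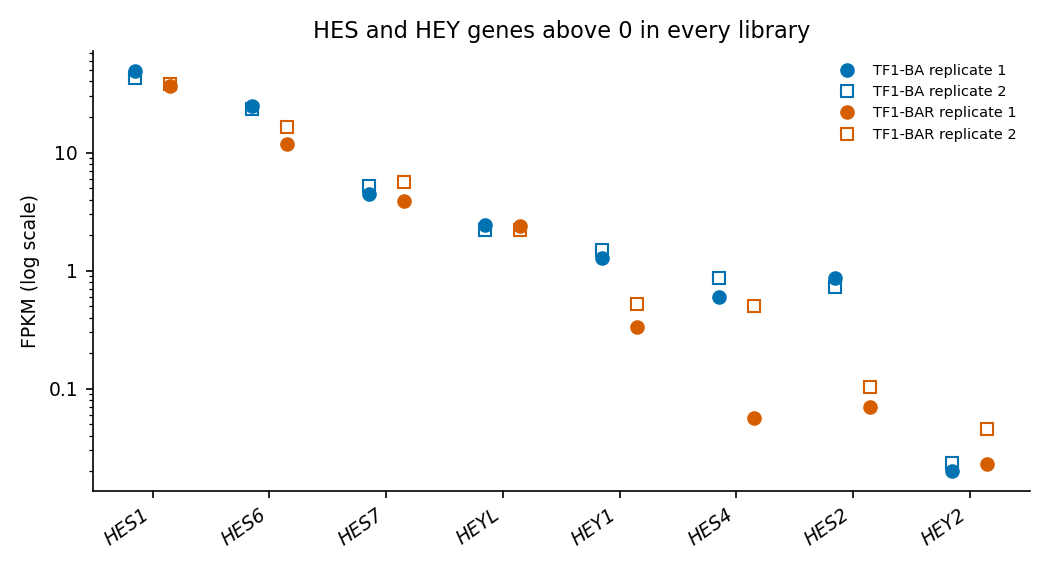
FPKM (log axis) of the 8 HES and HEY genes above 0 in every library, 1 point per library, ordered by mean level. HES1, HES6, HEY1, HES4 and HES2 are lower in both TF1-BAR libraries (orange) than in both TF1-BA libraries (blue), and HES7 and HEYL overlap.

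Of the 106 genes on lists of the whole pathway, the 10 genes above included, 91 were tested. By adjusted p 20 rose and 12 fell, or 35.2% of those tested against 26.9% of all genes (16.3% higher and 10.5% lower). With only protein-coding genes in the fit the shares were 49.5% against 41.7% of all such genes. Limma voom on the recovered fragments gave 51.6% against 37.6%. Of the 91, 0 were called higher and 2 lower, where 3.05% and 1.69% of all genes were. With quantile normalisation the split was 15 higher and 17 lower, so that the balance between rising and falling genes depends on the scaling. Without TF1-BA replicate 1 and without replicate 2 there were 0 of 91 with an adjusted p under 0.05, without TF1-BAR replicate 1 there were 20, without TF1-BAR replicate 2 there were 7, and with no filter on low values 8 of 106. Over all genes these 5 settings gave 0.928%, 0.271%, 20.5%, 6.62% and 4.69%. HEY1, DTX3, SNAI2, HES4 and DLK1 averaged under 0.5 FPKM in 1 of the lines and passed the filter through the other. The median log2 fold change of the tested genes was −0.00067, against 0.066 over all genes. Of the ligand list beyond the 3 described, DLL3, DLK1 and DLK2 did not pass the test, and DLL4, with 4 to 16 fragments per library, was below the filter and was not tested.

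Receptor cleavage was represented by 9 genes, all tested, of which 2 rose and 0 fell, or 22.2% against the 26.9% of all genes, with a median log2 fold change of −0.10. PSEN2, a catalytic subunit of gamma-secretase, stood at 2.66 and 3.19 FPKM in TF1-BA and at 4.8 and 5.49 FPKM in TF1-BAR, a log2 fold change of 0.72 with SE 0.122 (limma adjusted p = 0.018). APH1A, which scaffolds the complex, rose by 0.28 on the log2 scale with SE 0.0663 (limma adjusted p = 0.0363). The proteases ADAM10, ADAM17 and FURIN did not pass.

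All 11 genes that add sugars to the receptors were tested, and 3 rose and 2 fell, which is 45.5% against 26.9% of all genes, with a median of 0.15. MFNG, the Manic Fringe transferase that alters which ligands a receptor answers to, was the most abundant Fringe gene. It stood at 46.6 and 46.3 FPKM in TF1-BA and at 67.4 and 75.1 FPKM in TF1-BAR, with no overlap and a log2 fold change of 0.61 (SE 0.074, limma adjusted p = 0.00911). Its relatives LFNG, at 3.54 and 2.82 against 3.73 and 3.68 FPKM, and RFNG, at 4.59 and 4.9 against 4.89 and 5.76 FPKM, did not pass. POGLUT1, which adds O-linked glucose to the receptors, rose by 0.38 on the log2 scale with SE 0.0853 (limma adjusted p = 0.0338).

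Of the 5 tested genes for ligand endocytosis 1 rose, MIB2, a ubiquitin ligase for ligands, at 5.97 and 7.1 against 8.99 and 10.5 FPKM (log2 fold change 0.54, SE 0.122, limma adjusted p = 0.0337), or 20% against 26.9% of all genes. The list of receptor trafficking and turnover had 13 tested genes, of which 1 rose and 3 fell, or 30.8% against the same 26.9%, with a median of −0.16. All 3 that fell belonged to the Deltex family of ubiquitin ligases. DTX3 passed the filter through the TF1-BA libraries, in which it was high, so that this count is not support for a change of the family. DTX3 stood at 1.22 and 1.23 FPKM in TF1-BA and at 0.404 and 0.441 FPKM in TF1-BAR (log2 fold change −0.91, SE 0.162, limma adjusted p = 0.0204). DTX2 stood at 2.69 and 3 against 1.7 and 1.64 FPKM (log2 fold change −0.62, SE 0.109, limma adjusted p = 0.0194). DTX3L, named after its values were seen, is known for repair of DNA damage with PARP9 and was lower by a smaller margin, at a log2 fold change of −0.45 (limma adjusted p = 0.0406). DTX4, also named after its values were seen, was below the filter and went the other way, with 4 and 1 fragments in TF1-BA and 15 and 17 in TF1-BAR.

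In the nucleus, 8 of 9 genes of the activation complex were tested, and 3 rose and 0 fell, or 37.5% against 26.9% of all genes, with a median of 0.32. KAT2A, a histone acetyltransferase, stood at 17.5 and 18.2 against 24.8 and 27.2 FPKM (log2 fold change 0.53, SE 0.0753, limma adjusted p = 0.0122). MAML3, a Mastermind-like coactivator, stood at 1.68 and 1.84 against 2.64 and 2.81 FPKM (log2 fold change 0.51, SE 0.107, limma adjusted p = 0.0282). KAT2A also acts at many genes outside the pathway.

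The corepressors of RBPJ, 19 of 20 tested, split into 3 that rose and 4 that fell, or 36.8% against 26.9% of all genes, with a median of 0.12. TLE4, a corepressor of the Groucho family that HES proteins recruit, was the gene called lower, where 1.69% of all genes were. It stood at 3.45 and 3.48 FPKM in TF1-BA and at 1.08 and 1.45 FPKM in TF1-BAR, from 509 and 441 down to 140 and 191 fragments. The lines did not overlap, and the log2 fold change was −1.17 with SE 0.139 (limma adjusted p = 0.00887). Without TF1-BA replicate 1 its log2 fold change was −1.18 and without replicate 2 it was −1.17, and neither of these fits called it. TLE2, of the same family, fell from 1.81 and 1.95 to 1.13 and 1.08 FPKM (log2 fold change −0.57, SE 0.123, limma adjusted p = 0.0307), while TLE3, named after its values were seen, rose from 9.19 and 8.44 to 11.9 and 14.4 FPKM (log2 fold change 0.55, limma adjusted p = 0.0277). ZMYND8, a reader of histone marks, rose from 23.8 and 23.5 to 36.2 and 36.8 FPKM (log2 fold change 0.61, SE 0.0597, limma adjusted p = 0.00644), and it lies on chromosome 20, whose median was 0.39. POFUT1 and ITCH, named after their values were seen, lie there too. Both counted as rising on their lists, each at a log2 fold change of 0.31.

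Target genes reported for Notch in other tissues, beyond the HES and HEY family, numbered 12 tested, of which 6 rose and 1 fell, or 58.3% against 26.9% of all genes, with a median of 0.33. SNAI2, 1 of those that rose, passed the filter through the TF1-BAR libraries, in which it was high. IL7R, which was lower in TF1-BAR, was below the filter. Neither the count nor the median is therefore support for a change of these targets. TRIB2, a pseudokinase with oncogenic activity in myeloid leukaemia, stood at 13.2 and 12.9 FPKM in TF1-BA and at 22.3 and 24.8 FPKM in TF1-BAR (log2 fold change 0.83, SE 0.0803, limma adjusted p = 0.00643). SNAI2, a zinc finger repressor, was sparse, with 8 and 10 fragments against 26 and 35 (log2 fold change 0.87, SE 0.215, limma adjusted p = 0.0419), and its adjusted p was under 0.05 in 7 of 15 alternatives. Over these its log2 fold change ran from 0.58 to 1.79. NRARP, which limits Notch signalling and is among its most general targets, stood at 3.54 and 4.24 against 4.12 and 5.24 FPKM, overlapped between the lines and did not pass the test. Among those named after their values were seen, GATA3, a factor of early T cells, fell from 4.12 and 3.82 to 1.77 and 2.47 FPKM (log2 fold change −0.78, SE 0.155, limma adjusted p = 0.0253). IL7R, the receptor subunit for interleukin-7 and a T cell target of NOTCH1, was below the filter, with 53 and 42 fragments in TF1-BA and 0 in both TF1-BAR libraries, and the exact 95% upper limit of its pooled ratio was 0.0417, for counting error only. These targets have other regulators in the cell, and most of the lists were known from other tissues.

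The directions of NOTCH1, RBPJ and HES1 were the same under each of the 16 alternative settings, as the plot of settings shows. NOTCH1 had an adjusted p under 0.05 in 13 of them, HES1 in 2 and RBPJ in 1.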

How the data were processed

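The authors sequenced RNA of both cell lines, each in 2 libraries. Per the submitters' processing notes, TopHat2 2.0.13, Cufflinks 2.2.0 and Cuffdiff 2.2.0 were used with GRCh38, and the annotation release is not given in the sources used here. The values deposited by the authors are FPKM per gene and library. Since these are not counts, the lines were compared on log2(FPKM + 0.5) by the lmFit and trended eBayes functions of limma 3.58.1 (R 4.3.3), with Benjamini-Hochberg adjustment over the 15519 genes with a mean of at least 0.5 FPKM. Such fold changes understate those of low genes. Tables were made in Python 3.11.15.

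Fragments were recovered from the steps of the FPKM. All 30853 genes above 0 gave whole fragments within 0.01, 14816 of them at the exon length of GENCODE 44 and 16037 at a fitted length, which is the weaker evidence. Of the 10 Notch genes, NOTCH4 and HES4 were whole at the GENCODE 44 length, and the fragments of the other 8 rest on a fitted length. FPKM levels are compared between genes per length as the authors set it. Samples were grouped by their labels.

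The 10 genes and the pathway lists were chosen with earlier results of these data known. All 10 are named. From each list, the genes called and, of the rest with an adjusted p under 0.05, the 2 with the largest absolute log2 fold change are named, and others with a difference are marked. Relatives that did not pass are named for comparison, after their values were seen. The lists also name genes not analysed here. The 16 alternatives varied pseudocount, filter, scaling, moderation, replicate block, libraries, unit and genes tested, and a further one dropped the fold threshold.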

Additional observations from a re-analysis of the deposited data

How the results depend on the processing

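The count of the 10 Notch genes called stayed at 0 in both directions under all alternatives except the adjusted p with no fold threshold, which counts 1 higher. The number with an adjusted p under 0.05 was 1 with the main settings, 0 with no filter on low values, 3 with limma voom on the recovered fragments (37.6% of all genes), 3 over protein-coding genes only (41.7% of all genes), and 0 to 1 when a library was left out. NOTCH1 had a log2 fold change of 0.65 to 0.89 without 1 library. JAG2 reversed with TPM scaling (0.0005) and without TF1-BAR replicate 1, with a range of −0.19 to 0.088 without 1 library, and DLL1 without TF1-BA replicate 1, with a range of −0.16 to 0.013. The pathway genes called lower were 2 with the main settings, 0 with a pseudocount of 1 FPKM, 1 with a mean of at least 1 FPKM, 1 with TPM scaling, 3 each with a pseudocount of 0.1 FPKM, quantile normalisation and limma voom, 0 to 1 without 1 library, and 12 with no fold threshold. Those called higher were 0, but 1 with limma voom and 20 with no fold threshold. Where these calls changed, the cause was not tested, except that dropping the fold threshold relaxes the call by construction.

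Over all genes, 474 were called higher and 263 lower. The calls were 302 and 185 with a pseudocount of 1 FPKM, 654 and 362 with one of 0.1 FPKM, 556 and 235 with TPM scaling, 307 and 201 with no filter, 765 and 388 with limma voom, 239 and 199 over protein-coding genes, 365 and 332 with quantile normalisation, and 85 and 59, 25 and 17, 483 and 300, and 244 and 183 without TF1-BA replicates 1 and 2 and TF1-BAR replicates 1 and 2. The higher calls were 64.3% of all with the main settings, 70.3% with TPM scaling, 52.4% with quantile normalisation and 54.6% over protein-coding genes. The replicate block gave 487 and 268 calls over all genes and changed none of the counts of Notch genes called (0 and 0). Deviations of same-numbered libraries correlated at 0.0646 across 15519 genes, and the libraries are treated as sharing only a number. With fewer than 50 fragments per library, DLL1, HES4, NOTCH3 and NOTCH4 are limited by counting error.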
